A study of Mus musculus with 4 samples.

Results

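The C-type lectin genes described here are 8 myeloid receptor genes, Clec4d, Clec4n, Clec4e, Clec4a1, Clec4a2, Clec4a3, Clec7a and Clec12a, taken from a list by gene symbol. Of the 8 symbols 7 matched a row among the 27998 genes counted, and Clec7a had no row to match and was not analysed here. The genes were selected on their measured levels in these same cells, so the levels below are a description, with no test. They are given in the Lyz2-high cells, with and without UMIs of Ear2, Fcgr4 and Adgre4, and in granulocyte precursor-like and dendritic-like cells.

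The study sequenced RNA of single cells sorted from tamoxifen-injected mice on the 10X Genomics Chromium platform, in 4 libraries with 1 library for each gate and genotype. The sort took lineage-negative cells that carried the surface proteins endomucin, VE-cadherin and CD31, and the Sca-negative gate, labelled sinusoidal, gave the 2 libraries used here. The library labelled knockout is ID1-/- ID3-/-, and the library labelled control is ID1 +/+ ID3+/-, although its title says WT, so the control mice also carried 1 altered Id3 allele. The design text gives both groups CDH5-CreER, a tamoxifen-inducible Cre driven by an endothelial promoter, and tamoxifen was given to all mice on 5 consecutive days. How many mice went into a library, how old they were and which exons were removed is not stated in the sources used. The design text states 20000 sorted cells, and the 4 files hold 3641 barcodes, of which 3567 passed the filters. The sinusoidal libraries kept 553 cells labelled knockout, with 8338220 UMIs over all their barcodes and a median of 15428 per kept cell, and 351 cells labelled control, with 3234772 UMIs and a median of 6142. A UMI is a molecular tag that counts each captured RNA molecule once, and levels are given as CPM, the UMIs of a gene scaled to a common total of UMIs in the same cells.

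With 1 library per group no replicate spread exists and nothing was tested between labels. The 95% intervals in brackets cover counting error only, and whether a difference exceeds the spread between mice cannot be judged. A gene was counted as higher or lower when it had at least 20 UMIs over both sides of a comparison and differed by at least 1.5-fold, and the share of all genes doing so in a comparison is printed with the counts.

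The labels name endothelial cells, but none of the 21 clusters of the 4 libraries met the rule for endothelial-like cells. In the 5 clusters that matter most here 9 to 14 of 15 endothelial markers were at 0 in each sinusoidal library, and their summed level was 12.4 to 112 CPM, against 60984 CPM for monocyte markers in the control cells of the leading monocyte-like cluster. The cells were named from blood cell markers, with the lectin genes left out of the clustering.

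The targeted genes did not check the labels. In the Lyz2-high cells without Ear2, Fcgr4 and Adgre4 UMIs, Id3 was at 264 CPM in the library labelled knockout and 111 CPM in the library labelled control, a ratio of 2.39 (1.78 to 3.25). Id1 was at 81.7 CPM (69 UMIs) in the library labelled knockout and 25.2 CPM (13 UMIs) in the library labelled control. Both were higher in the library labelled knockout in these cells, but within the Fn1 Lyz2 cluster described below Id1 had 2 UMIs in the library labelled knockout and 13 in the library labelled control. Id3 was at 421 CPM in the library labelled knockout and 113 CPM in the library labelled control in that cluster, a ratio of 3.74 (2.78 to 5.06). Whether the labels of the libraries are right could not be tested from these tags. Tags outside a deleted part check nothing. Each direction below is therefore between libraries as labelled.

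C-type lectin receptors of myeloid cells are surface proteins with a carbohydrate recognition domain that bind sugars and lipids of microbes and of dying cells. Some of them activate the cell, mostly by pairing with the Fc receptor gamma chain (Fcer1g), which signals through the kinase Syk and the adaptor Card9 to inflammatory genes. Others carry an inhibitory motif that recruits phosphatases such as Ptpn6 and dampens the same signals, and monocytes and neutrophils carry both kinds.

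All 8 genes lie on mouse chromosome 6 (GRCm38, GENCODE M21 annotation). The 6 Clec4 genes span 368 kb, from 122921848 to 123289870. Clec12a and Clec7a lie within 130 kb, from 129342691 to 129472779, and 6053 kb separate these blocks. In order along the chromosome lie Clec4a1 (ENSMUSG00000049037) from 122921848 to 122934619, Clec4a3 (ENSMUSG00000043832) from 122952515 to 122969875, Clec4a2 (ENSMUSG00000030148) from 123106428 to 123143999. They are followed by Clec4n (ENSMUSG00000023349) from 123229843 to 123247021, Clec4d (ENSMUSG00000030144) from 123262111 to 123275265 and Clec4e (ENSMUSG00000030142) from 123281789 to 123289870, the last on the minus strand and the others on the plus strand. Clec12a (ENSMUSG00000053063) runs from 129342691 to 129365303 on the plus strand. Sequences upstream of 7 of the 8 genes were matched in RefSeq (GRCm38.p6), and Clec4n was not among them. The 250 bases before the start are printed 5′ to 3′ on the gene's strand for 5 genes that stand for the 3 level patterns reported below. Clec4a1, Clec4a3 and Clec4e were highest in the Ear2 Fcgr4 monocyte-like cluster, Clec12a was highest in the granulocyte precursors, and Clec4a2 was highest in the later of these and low in the Ear2 Fcgr4 cluster. Capitals mark GAGGAA or its reverse complement TTCCTC, the core letters bound by the myeloid factor PU.1. For Clec4a3 the window before the downstream of its 2 RefSeq starts is shown.
Clec4a1 (chr6:122921598-122921847, plus strand): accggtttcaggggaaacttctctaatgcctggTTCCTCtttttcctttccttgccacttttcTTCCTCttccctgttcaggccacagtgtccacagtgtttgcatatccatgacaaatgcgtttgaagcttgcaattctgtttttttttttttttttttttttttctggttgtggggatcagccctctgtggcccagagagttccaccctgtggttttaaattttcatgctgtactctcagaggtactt
Clec4a3 (chr6:122952394-122952643, plus strand): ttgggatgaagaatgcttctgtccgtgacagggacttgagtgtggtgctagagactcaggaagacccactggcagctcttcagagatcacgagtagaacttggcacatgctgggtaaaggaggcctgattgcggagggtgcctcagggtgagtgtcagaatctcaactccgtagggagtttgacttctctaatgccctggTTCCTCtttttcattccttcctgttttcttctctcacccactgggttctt
Clec4e (chr6:123289872-123290121, minus strand): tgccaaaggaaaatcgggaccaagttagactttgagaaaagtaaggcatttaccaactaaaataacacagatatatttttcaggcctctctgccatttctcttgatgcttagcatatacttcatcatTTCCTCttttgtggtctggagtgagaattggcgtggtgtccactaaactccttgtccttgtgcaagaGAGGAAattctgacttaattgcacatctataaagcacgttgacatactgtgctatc
Clec12a (chr6:129349994-129350243, plus strand): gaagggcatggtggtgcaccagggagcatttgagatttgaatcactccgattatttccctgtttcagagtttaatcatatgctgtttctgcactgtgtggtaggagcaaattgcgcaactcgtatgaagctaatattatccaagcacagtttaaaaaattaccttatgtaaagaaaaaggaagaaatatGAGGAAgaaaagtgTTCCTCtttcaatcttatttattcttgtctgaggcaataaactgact
Clec4a2 (chr6:123122440-123122689, plus strand): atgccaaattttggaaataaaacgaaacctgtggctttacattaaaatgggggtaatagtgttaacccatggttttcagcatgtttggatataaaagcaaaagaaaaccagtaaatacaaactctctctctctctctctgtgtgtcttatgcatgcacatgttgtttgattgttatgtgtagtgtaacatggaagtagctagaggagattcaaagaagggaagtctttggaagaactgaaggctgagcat

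GAGGAA on either strand stood in a window of 6 of the 7 genes with RefSeq windows (Clec7a included, Clec4n not), all but Clec4a2. It stood in 23.3% of 32817 such windows of all genes. Clec4a3 and Clec7a had 2 windows each, and a match in either counted, so the gene count is not a share of windows. GAGGAA was absent from the upstream window of Clec4a3. It began 217 and 187 bases before the start of Clec4a1, 50 bases before the downstream start of Clec4a3, 123 and 56 bases before that of Clec4e, and 61 and 47 bases before that of Clec12a. The C/EBP letters TTNNGCAA stood in the windows of Clec12a and Clec4e, against 9.57% of all windows, the AP-1 letters TGANTCA in that of Clec12a alone, against 6.75%, and the NR4A letters AAAGGTCA in none of the 7, against 1.34%. The longest run shared between any 2 of these genes, over 34 pairs of windows, was 17 bases, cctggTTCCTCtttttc. It began 222 bases before the start of Clec4a1 and 55 bases before the downstream start of Clec4a3, and only these 2 of the 32817 windows held it. These matches are letters in a window and say nothing of a factor's binding. The RefSeq starts of Clec4a2 and Clec12a lie inside the longer GENCODE gene models.

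The Lyz2-high cells were the 3 monocyte-like clusters. The first, led by Fn1 and Lyz2, had Ccr2 and Ms4a4c among its leading genes. The second was led by Chil3 and F13a1, with Ly6c2 and Ms4a6c. The last was led by Ear2, Fcgr4 and Gngt2, genes of nonclassical monocytes. In that order they held 52, 60 and 5 cells of the library labelled knockout, and 110, 17 and 42 cells of the library labelled control. The F13a1 Chil3 cells were deeper, with a median of 16090.5 UMIs in the library labelled knockout and 10835 in the library labelled control, against 5874.5 and 5773.5 in the Fn1 Lyz2 cells. F13a1 was also among the leading genes of an unnamed cluster with Prg2 and Mpo, of 153 cells labelled knockout and 22 labelled control.

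The label groups were thus built from different clusters. Of the Lyz2-high cells without Ear2, Fcgr4 and Adgre4 UMIs, 38 of the 76 cells labelled knockout lay in the F13a1 Chil3 cluster, against 9 of the 84 cells labelled control. The Fn1 Lyz2 cluster held 48.7% of these cells in the library labelled knockout and 85.7% in the library labelled control. Of the cells with such UMIs, the Ear2 Fcgr4 cluster held 9.76% of 41 cells labelled knockout and 45.9% of 85 cells labelled control. The split by Ear2, Fcgr4 and Adgre4 UMIs therefore did not separate these clusters, and 22 of the 41 cells labelled knockout and 29 of the 85 labelled control were put in the group with such UMIs by a single UMI.

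**Figure D1:**
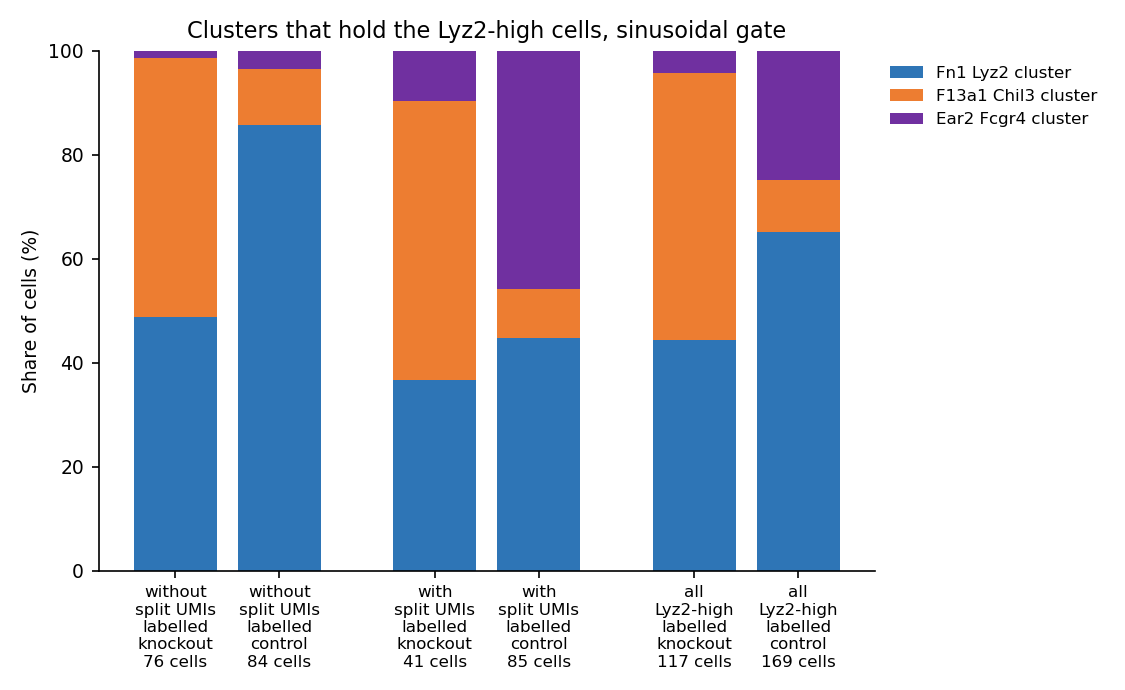
Share of Lyz2-high cells (%, y axis) held by each of the 3 monocyte-like clusters, for cells without and with Ear2, Fcgr4 or Adgre4 UMIs (split UMIs) and for all of them, the library labelled knockout left of the library labelled control. The F13a1 Chil3 cluster held 51.3% of all 117 cells labelled knockout and 10.1% of all 169 cells labelled control.

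Clec4e encodes Mincle, an activating receptor for mycobacterial glycolipid and for a nuclear protein set free by dying cells. In the Fn1 Lyz2 cluster it was at 170 CPM (127 to 222; 52 UMIs) in the library labelled knockout and 127 CPM (101 to 157; 81 UMIs) in the library labelled control, a ratio of 1.34 (0.927 to 1.92). In the F13a1 Chil3 cluster it was at 21.2 CPM in the library labelled knockout and 37.3 CPM in the library labelled control, from 21 and 7 UMIs. The highest level was in the Ear2 Fcgr4 cluster of the library labelled control, at 336 CPM (235 to 465). Clec4e thus lay in 3 steps whose intervals did not overlap in the library labelled control, with the Ear2 Fcgr4 cells at the top and the F13a1 Chil3 cells at the bottom. In the granulocyte precursor-like Elane cluster it was at 14.9 CPM in the library labelled knockout and 22.7 CPM in the library labelled control.

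Clec4d (MCL) and Clec4n (Dectin-2, a receptor for fungal mannans) are the other receptors of the list that pair with the gamma chain, and both were low. In the Fn1 Lyz2 cluster Clec4n had 8 UMIs (26.1 CPM, 11.3 to 51.4) in the library labelled knockout and 3 UMIs (4.69 CPM, 0.967 to 13.7) in the library labelled control. Clec4d had 7 UMIs there in each library, or 22.8 CPM in the library labelled knockout and 10.9 CPM in the library labelled control. In the granulocyte precursor-like Elane cluster it was at 17.2 CPM (12.5 to 23.1; 44 UMIs) in the library labelled knockout and 13.2 CPM (6.57 to 23.5; 11 UMIs) in the library labelled control, so these levels did not differ beyond their intervals. In the Lyz2-high cells without split UMIs Clec4n had 17 UMIs (20.1 CPM) in the library labelled knockout and 3 UMIs (5.82 CPM) in the library labelled control, a ratio of 3.46 (1 to 18.4). A single cell of the library labelled knockout, singled out after its values were seen, held 14 of these 17 Clec4n UMIs and 10 of the 16 Clec4d UMIs. Without it the Clec4n ratio was 0.614.

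That cell had 4208 UMIs, lay in the Ear2 Fcgr4 cluster and carried no UMI of Ear2, Fcgr4 or Adgre4. It held 74 UMIs of Hmox1, the haem-degrading enzyme, 11 of Spic, a factor of red pulp and bone marrow iron-recycling macrophages, 6 of Il10 and 2 of Marco. Of 11 macrophage markers 3 had UMIs (Adgre1, Spic and Hmox1; 88 UMIs), and of 18 monocyte markers 9 did (73 UMIs). Of 15 granulocyte precursor markers 5 had UMIs, with 6 UMIs in all. Hmox1 was also among the leading genes of the Ear2 Fcgr4 cluster as a whole. In the other Lyz2-high cells of the library labelled knockout Spic was at 2.29 CPM and Il10 at 0.

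Clec4a1 (DCIR4) and Clec4a3 (DCIR3), neighbours at the start of the gene block that share the 17-base run printed above, belong to the dendritic cell immunoreceptor family. They followed the same order of clusters as Clec4e. Clec4a3 was at 411 CPM (342 to 489) in the library labelled knockout and 386 CPM (340 to 438) in the library labelled control within the Fn1 Lyz2 cluster, a ratio of 1.06 (0.852 to 1.32). Clec4a1 was at 326 CPM (265 to 397) in the library labelled knockout and 311 CPM (269 to 358) in the library labelled control, a ratio of 1.05 (0.816 to 1.34). The intervals of both ratios leave out a 1.5-fold difference in either direction.

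In the F13a1 Chil3 cluster Clec4a3 was at 25.3 CPM (16.3 to 37.3; 25 UMIs) in the library labelled knockout and 63.9 CPM (33.0 to 112; 12 UMIs) in the library labelled control, a ratio of 0.395 (0.191 to 0.864). Clec4a1 was at 33.3 CPM (33 UMIs) in the library labelled knockout and 21.3 CPM (4 UMIs) in the library labelled control, a ratio of 1.57 (0.557 to 6.08). These neighbours thus lay on opposite sides of 1 there, each on few UMIs. Lyz2, which marks maturing myeloid cells, was at 14707 CPM in the F13a1 Chil3 cells labelled knockout and 25370 CPM in those labelled control, and granulocyte precursor markers summed to 6166 and 3193 CPM in the same order; their part in these ratios was not tested.

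In the Ear2 Fcgr4 cluster of the library labelled control, from 42 cells, Clec4a3 was at 1054 CPM (869 to 1267) and Clec4a1 at 774 CPM (617 to 960). The 5 cells labelled knockout in this cluster held 13 Clec4a3 UMIs and 5 Clec4a1 UMIs, and no ratio is given for so few cells.

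Against the F13a1 Chil3 cluster, the Fn1 Lyz2 cluster had 16.3 times (10.5 to 26.1) the Clec4a3 level in the library labelled knockout and 6.05 times (3.40 to 11.9) in the library labelled control. For Clec4a1 the ratios were 9.79 (6.54 to 15) in the library labelled knockout and 14.6 (5.62 to 54.2) in the library labelled control, and for Clec4e 8 (4.73 to 14.0) and 3.40 (1.58 to 8.73) in the same order. Except for Clec4a3 in the library labelled control, the F13a1 Chil3 levels under these ratios lay within the interval of the erythroid-like background given below. Of the 5 lectin genes with enough UMIs, 3 were higher in the Fn1 Lyz2 cluster in the library labelled knockout, where 19.4% of 5689 genes were, and 4 in the library labelled control, where 22.6% of 4422 were. None was lower, against 30.4% of genes in the library labelled knockout and 23.2% in the library labelled control. The additional gene in the library labelled control was Clec12a, at 1.57 (1.12 to 2.25) in the library labelled control and 1.30 (1.03 to 1.63) in the library labelled knockout.

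Against the Fn1 Lyz2 cluster, the Ear2 Fcgr4 cluster of the library labelled control had 2.73 times (2.16 to 3.42) the Clec4a3 level, 2.49 times (1.90 to 3.23) the Clec4a1 level and 2.65 times (1.74 to 3.97) the Clec4e level. These 3 of 5 genes were higher, against 22.3% of 4143 genes. Clec4a2 was lower, at 0.414 (0.228 to 0.699), as were 26.3% of the genes, and Clec12a was at 1.06 (0.735 to 1.5).

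Clec4a2 encodes DCIR1, an inhibitory receptor with a cytoplasmic phosphatase-recruiting motif, and its levels ran in another order. It was at 336 CPM (274 to 408) in the library labelled knockout and 338 CPM (294 to 386) in the library labelled control in the Fn1 Lyz2 cluster. In the F13a1 Chil3 cluster it was at 320 CPM (286 to 358) in the library labelled knockout and 394 CPM (309 to 494) in the library labelled control. These 4 values did not differ beyond their intervals. The Ear2 Fcgr4 cells labelled control, where Clec4a1, Clec4a3 and Clec4e were highest, had 140 CPM (78.3 to 231) of Clec4a2. Of the stretches of Clec4a2 transcript ends as long as a read, 7.53% also occur in Clec4a4 or Clec4b1, so some of its tags could not be assigned. Clec4a4 had no UMI in the Lyz2-high cells of either sinusoidal library, and Clec4b1 was at 35.8 CPM in the library labelled knockout and 35.3 CPM in the library labelled control.

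Clec4a2 was highest in the granulocyte precursors that make secondary granule proteins. In the Ngp cluster, led by Ngp, Camp and S100a9, it was at 588 CPM (536 to 644) in the library labelled knockout and 517 CPM (442 to 602) in the library labelled control. In the Elane cluster, led by the primary granule genes Elane, Mpo and Ctsg, it was at 255 CPM (235 to 275) in the library labelled knockout and 197 CPM (168 to 230) in the library labelled control, a ratio of 1.29 (1.09 to 1.54). The Ngp cells thus had 2.31 times (2.05 to 2.61) the Clec4a2 level of the Elane cells in the library labelled knockout and 2.62 times (2.10 to 3.27) in the library labelled control. It was the only lectin gene higher in the Ngp cluster, of 5 with enough UMIs in the library labelled knockout (9.81% of 7645 genes) and of 3 in the library labelled control (11.0% of 4948). In the library labelled knockout 2 of the 5 were lower in the Ngp cluster (29.2% of genes), Clec4d and Clec4a3. Clec4d was at 0.220 (0.0436 to 0.685) from 3 UMIs in the Ngp and 44 in the Elane cells. Clec4a3 was at 0.644 (0.16 to 1.92) from 4 and 20 UMIs, too close to the background given below to be read as expression. In the library labelled control 0 of 3 were lower (46.6%). Clec4d, with 0 UMIs in the Ngp and 11 in the Elane cells of that library, had too few UMIs to be counted.

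Clec12a encodes MICL, an inhibitory receptor for uric acid crystals set free by dead cells, and it was highest in the granulocyte precursors. It was at 1061 CPM (1021 to 1101) in the library labelled knockout and 1087 CPM (1017 to 1160) in the library labelled control in the Elane cluster, a ratio of 0.976 (0.905 to 1.05). In the Ngp cluster it was at 1137 CPM (1064 to 1214) in the library labelled knockout and 796 CPM (702 to 900) in the library labelled control, a ratio of 1.43 (1.24 to 1.65). Beside this difference Lyz2 was at 3559 CPM in the Ngp cells labelled knockout and 12229 CPM in those labelled control, and 26.3% of the 4415 genes tested were at least 1.5-fold higher in the library labelled knockout; the part of either in the Clec12a value was not tested.

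The Elane cells had 2.98 times (2.46 to 3.65) the Clec12a level of the Fn1 Lyz2 cells in the library labelled knockout and 3.17 times (2.74 to 3.69) in the library labelled control. It was the only lectin gene higher there, of 6 in the library labelled knockout and 5 in the library labelled control, against 37.1% of 7517 and 33.5% of 6106 genes. In the same contrast 3 and 4 of these lectin genes were lower, Clec4e, Clec4a1 and Clec4a3 in both libraries and Clec4a2 in the library labelled control, against 28.3% and 30.6% of genes. The 3 monocyte-like clusters had 218 to 364 CPM of Clec12a wherever a library gave at least 10 cells, and the unnamed Prg2 Mpo F13a1 cluster 422 CPM in the library labelled knockout and 383 CPM in the library labelled control.

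Clec12a was also the only lectin gene above background in dendritic-like cells, led by Siglech, a marker of plasmacytoid dendritic cells. The 4 such cells labelled knockout held 9 UMIs, and the 14 labelled control 41 UMIs (600 CPM, 431 to 814). The other 6 lectin genes had 1 UMI in total in these 18 cells, a Clec4a1 UMI in the library labelled control. The exact interval of a count of 0 reaches 54.0 CPM in the 14 cells of that library. In the basophil and mast cell-like cluster led by Prss34, Clec12a was at 793 CPM (678 to 922) in 21 cells labelled knockout. The 4 cells labelled control held 41 UMIs. The other basophil and mast cell-like cluster, led by Osm and Ccl3, had 349 CPM (186 to 597) in 12 cells labelled control.

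**Figure D2:**
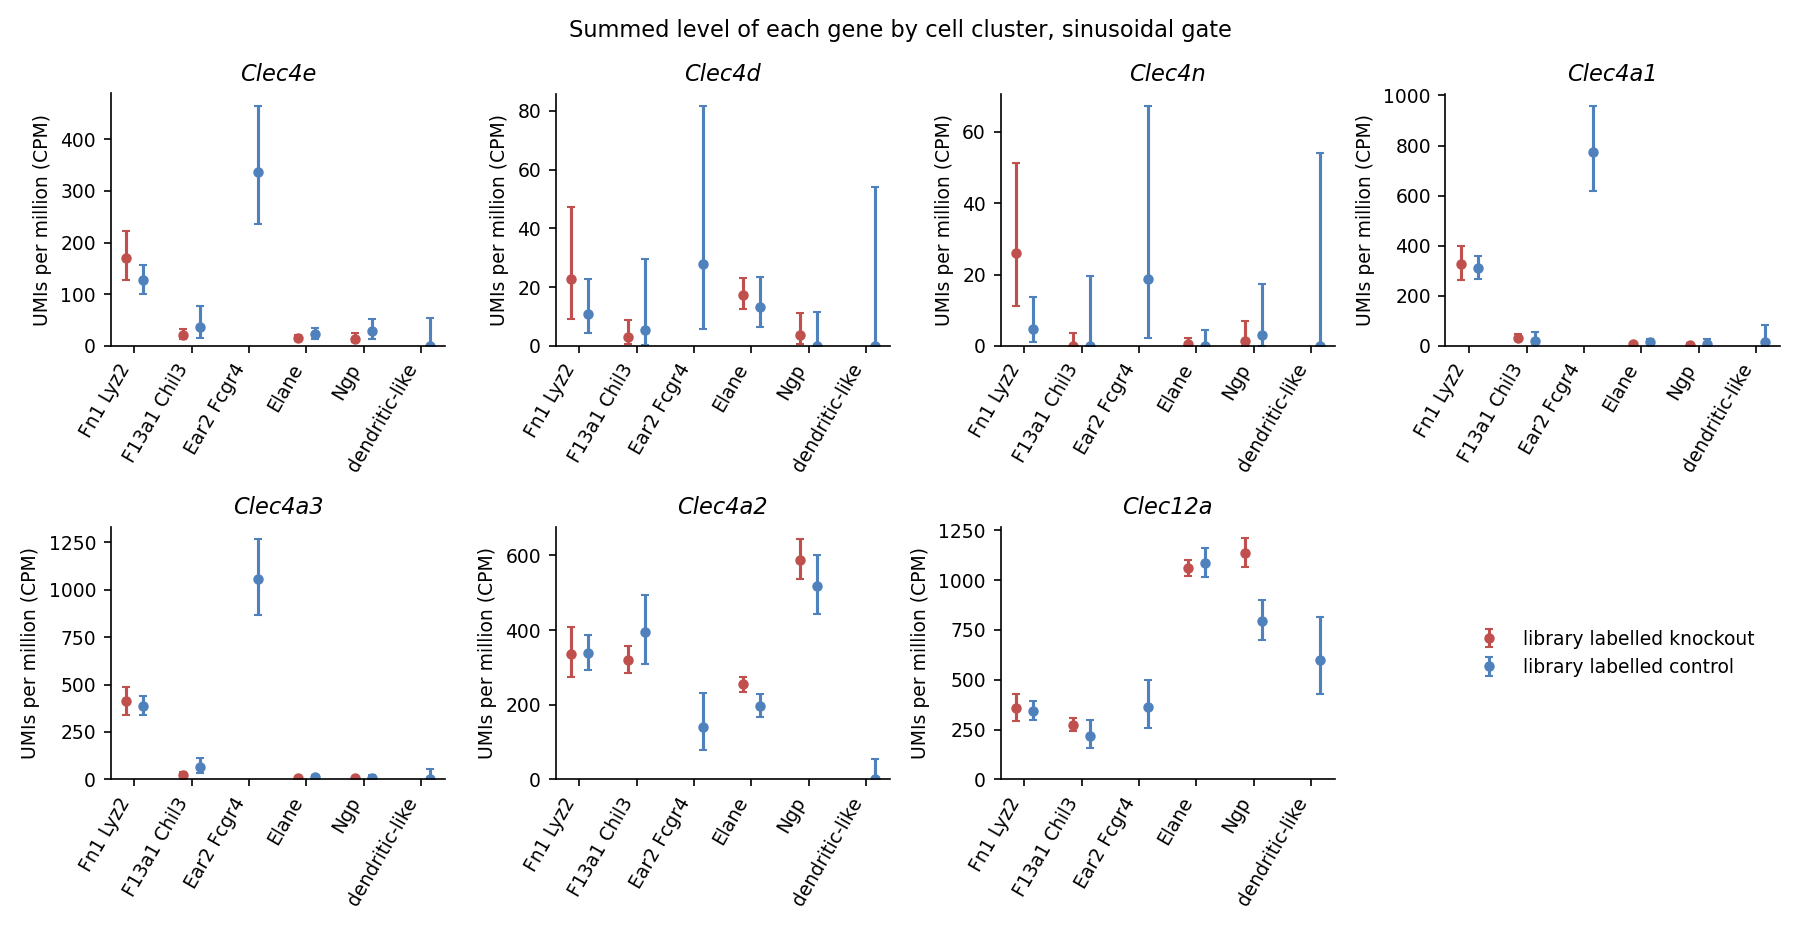
Summed level of each lectin gene (CPM, y axis, linear and scaled per gene) in 6 clusters of the sinusoidal gate, the library labelled knockout left of the library labelled control; bars are exact Poisson 95% intervals, and groups under 10 cells are not drawn. Clec4e, Clec4a1 and Clec4a3 peak in the Ear2 Fcgr4 cells of the library labelled control, at 336, 774 and 1054 CPM, while Clec4a2 and Clec12a peak in the granulocyte precursors, at 588 and 1137 CPM in the Ngp cells labelled knockout.

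To set detection beside depth, each cell was thinned to 2000 UMIs. At that depth 36.5% of Fn1 Lyz2 cells labelled knockout (19 of 52) and 35.5% of those labelled control (39 of 110) had UMIs of 2 or more of Clec4a1, Clec4a3 and Clec4e. In the F13a1 Chil3 cluster 1.67% of 60 cells labelled knockout and 5.88% of 17 labelled control did, and in the Ear2 Fcgr4 cells labelled control 76.2% of 42. At 2000 UMIs per cell, detection of several of these genes in a cell was thus common in the Fn1 Lyz2 and Ear2 Fcgr4 clusters. It was rare in the F13a1 Chil3 cluster at that depth. Before thinning the shares were 92.3% and 78.2% in the Fn1 Lyz2 cluster and 23.3% and 23.5% in the F13a1 Chil3 cluster, the library labelled knockout first.

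Both Clec4a2 and Clec12a were seen in 64.8% (50.6 to 77.3) of thinned Ngp cells labelled knockout and 28.6% (13.2 to 48.7) of those labelled control, against 96.3% and 89.3% unthinned. In the Elane cluster the thinned shares were 32.7% in the library labelled knockout and 32.6% in the library labelled control. Erythroid-like cells, which should lack these receptors, served as the background. Of 11 such cells labelled knockout (median 9771 UMIs) 2 had a Clec12a UMI after thinning, and of 14 labelled control (median 11024 UMIs) 1 had a Clec4e and 1 a Clec4a1 UMI, with 0 cells for the other lectin genes. Before thinning Clec12a had 5 UMIs (48.8 CPM, 15.8 to 114) in the 11 cells labelled knockout and 3 UMIs (20.8 CPM, 4.29 to 60.8) in the 14 labelled control. Clec4e, Clec4a1 and Clec4a3 had 1 UMI each (6.93 CPM) in these 14 cells. The levels of Clec4a1 and Clec4a3 in the Elane and Ngp clusters, 3.79 to 16.7 CPM, are so close to this background that they are not read as expression. Its interval for each of the 3 genes is wide, 0.176 to 38.6 CPM. That interval also holds the F13a1 Chil3 levels of Clec4a1 and Clec4e in both libraries, and of Clec4a3 in the library labelled knockout.

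**Figure D3:**
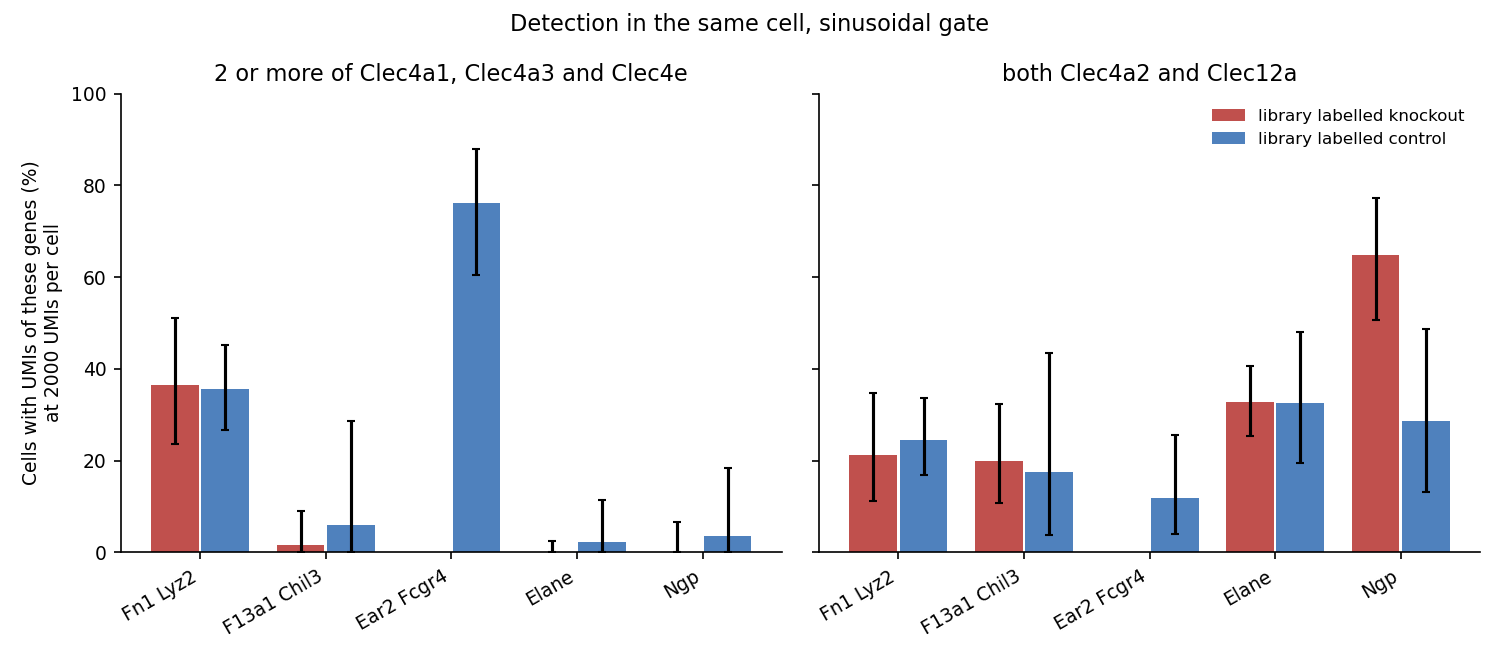
Share of cells (%, y axis) with UMIs of 2 or more of Clec4a1, Clec4a3 and Clec4e (left) and of both Clec4a2 and Clec12a (right) after thinning each cell to 2000 UMIs, by cluster, the library labelled knockout left of the library labelled control; bars are Clopper-Pearson 95% intervals, and groups under 10 cells are not drawn. The left shares are highest in the Ear2 Fcgr4 cells labelled control (76.2%) and the right ones in the Ngp cells labelled knockout (64.8%).

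When the Lyz2-high cells were pooled over clusters, Clec4e, Clec4a1, Clec4a3 and the sum of the 7 genes were lower in the library labelled knockout, and the other 4 genes were not. In the cells without split UMIs the 7 genes summed to 906 CPM (765 UMIs) in the library labelled knockout and 1444 CPM (745 UMIs) in the library labelled control, a ratio of 0.627 (0.566 to 0.695). Clec4a3 was at 124 CPM in the library labelled knockout and 361 CPM in the library labelled control (0.345, 0.269 to 0.440), Clec4a1 at 99.4 and 275 CPM (0.361, 0.272 to 0.476), and Clec4e at 56.8 and 122 CPM (0.465, 0.313 to 0.688). These 3 of the 7 genes were lower, against 16.8% of 5863 genes, and Clec4d and Clec4n, the genes of the single cell above, were higher, against 20.7%. Clec4a2 was at 0.787 (0.646 to 0.959) and Clec12a at 0.979 (0.801 to 1.20). With no cell filter the F13a1 Chil3 cells fell outside the monocyte-like clusters, and the summed ratio was 1.03 in cells without split UMIs and 1.06 in cells with them. The ratios of Clec4e were then 1.21 and 1.04, those of Clec4a1 0.875 and 0.887, and those of Clec4a3 0.951 and 0.861 in the same order.

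In the cells with split UMIs the 7 genes summed to 1001 CPM in the library labelled knockout and 1569 CPM in the library labelled control, a ratio of 0.638 (0.565 to 0.719). The same 3 genes were lower, of 5 with enough UMIs, against 20.1% of 4774 genes, with ratios of 0.284 for Clec4a3, 0.336 for Clec4a1 and 0.426 for Clec4e. Clec4a2 was at 400 CPM in the library labelled knockout and 289 CPM in the library labelled control, a ratio of 1.38 (1.09 to 1.75). Within a library, cells with split UMIs against those without had 1.10 times (0.983 to 1.24) the summed level in the library labelled knockout and 1.09 times (0.976 to 1.21) in the library labelled control. Of 7 genes 0 were higher (7.12% of 5733 genes) and Clec4n was lower (9.89%) in the library labelled knockout, and of 5 genes 0 were higher (13.2% of 4825) or lower (9.12%) in the library labelled control.

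The values inside single clusters differed from the pooled ones and from each other. In the Fn1 Lyz2 cluster 0 of 5 genes were higher (8.55% of 4608 genes) or lower (13.8%), and the summed ratio was 1.08 (0.971 to 1.21). Within that cluster the cells without split UMIs gave 0.963 (0.841 to 1.1), with 0 of 5 genes higher (9.35% of 3594 genes) or lower (13.7%). Those with split UMIs, 15 cells labelled knockout and 38 labelled control, gave 1.38 (1.14 to 1.66), with Clec4e the 1 gene of 5 that was higher (13.4% of 2097 genes) and 0 lower (15.4%). In the F13a1 Chil3 cluster the summed ratio was 0.915 (0.761 to 1.11), with Clec4a1 higher (17.3% of 5424 genes) and Clec4e and Clec4a3 lower (15.9%), at 0.569 and 0.395. The share of cells in each cluster moved with the pooled value, and its part in it was not tested.

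Both libraries held male and female cells. In the Lyz2-high cells without split UMIs the summed ratio was 0.541 over cells with Y-linked and no Xist UMIs (35 labelled knockout and 34 labelled control) and 0.577 over cells with Xist and no Y-linked UMIs (12 and 16 cells).

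**Figure D4:**
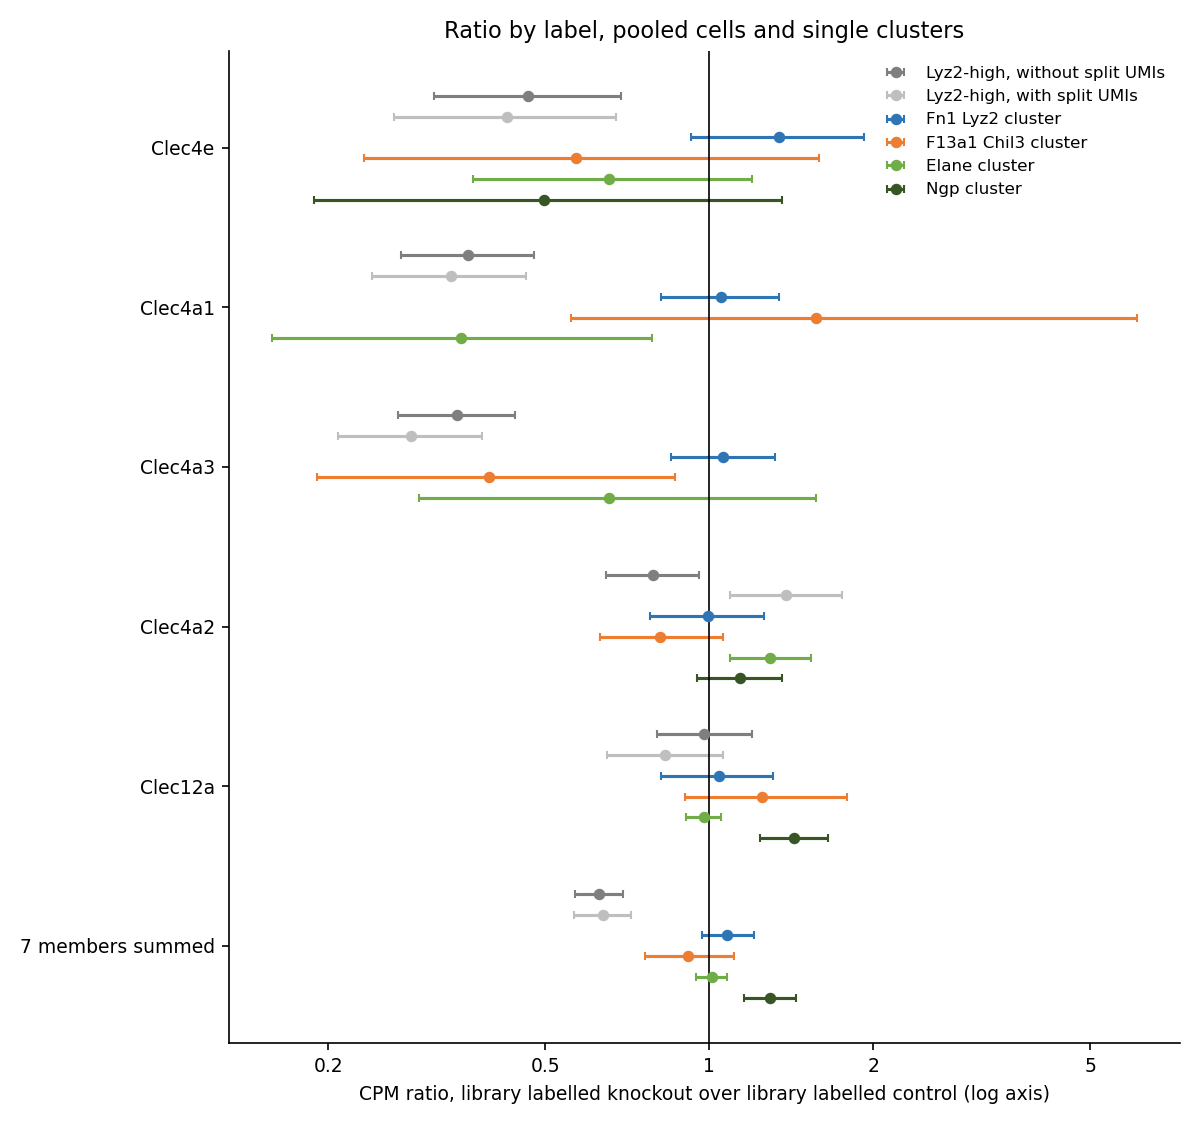
CPM ratio of the library labelled knockout over the library labelled control (x axis, log) for 5 lectin genes and the sum of 7, in pooled Lyz2-high cells and in single clusters, with exact conditional 95% intervals; points with under 20 UMIs are not drawn. The pooled ratios of Clec4e, Clec4a1 and Clec4a3 lie between 0.284 and 0.465, and those of the Fn1 Lyz2 cluster between 1.05 and 1.34. With no cell filter the pooled sums were at 1.03 and 1.06.

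In the granulocyte precursor-like cells (207 labelled knockout and 74 labelled control) the 7 genes summed to 1454 CPM in the library labelled knockout and 1352 CPM in the library labelled control, a ratio of 1.08 (1.02 to 1.14). No gene of 6 was higher and 2 were lower, each against 9.89% of 8342 genes. The lower genes were Clec4a1 (5.38 CPM in the library labelled knockout and 14.7 CPM in the library labelled control) and Clec4e (14.6 and 24.2 CPM), where the erythroid-like cells labelled control had 6.93 CPM of each. Clec4a2 was at 1.16 (1.03 to 1.32) and Clec12a at 1.07 (1 to 1.15). In the Elane cluster 0 of 6 genes were higher (9.12% of 7782 genes) and 3 were lower, Clec4e, Clec4a1 and Clec4a3 (10.7%). The intervals of Clec4e (0.655, 0.368 to 1.20) and Clec4a3 (0.655, 0.293 to 1.57) held 1. Clec4a1 was at 0.351 (0.158 to 0.785), but it and Clec4a3 lay too close to the erythroid-like background to be read as expression. In the Ngp cluster 0 of 3 were higher (26.3%) and Clec4e was lower (10.5%), from 11 UMIs in the library labelled knockout and 9 in the library labelled control.

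The signalling partners of these receptors were described from a list of 31 genes. In the Ear2 Fcgr4 cells against the Fn1 Lyz2 cells of the library labelled control, 11 of 22 genes with enough UMIs were higher, against 22.3% of all genes. None of the 22 was lower, against 26.3% of all genes. Their median log2 ratio was 0.73, against 0.06 over all genes. The gamma chain gene Fcer1g was at 7062 and 3712 CPM, 1.90 times higher (1.75 to 2.07), and the phosphatase gene Ptpn6 at 737 and 380 CPM, 1.94 times higher (1.49 to 2.51). Tyrobp, the adaptor DAP12, was at 4636 and 4537 CPM. By label, 0 of 24 were higher (8.55% of all genes) and 1, Pik3cg, lower (13.8%) in the Fn1 Lyz2 cluster, with Fcer1g at 3641 CPM in the library labelled knockout and 3712 CPM in the library labelled control. In the pooled Lyz2-high cells without split UMIs 1 of 25 was higher (20.7% of all genes) and 11 were lower (16.8%).

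Genes that these receptors are known to induce were described from a list of 23, mostly cytokines, chemokines and NF-kB feedback genes. In the Fn1 Lyz2 cluster 6 of 13 with enough UMIs were higher in the library labelled knockout (Tnf, Cxcl2, Ccl2, Egr1, Nlrp3 and Socs3, against 8.55% of genes), and Ccl4 was lower (13.8%). Their median log2 ratio was 0.42, against 0.03 over all genes. Within that cluster, cells without split UMIs had 2 of 12 higher (Cxcl2 and Ccl2, 9.35% of genes) and 2 lower (Ccl4 and Egr1, 13.7%), with a median of 0.07. The 15 cells labelled knockout and 38 labelled control with split UMIs had 5 of 7 higher (13.4%) and Ccl4 lower (15.4%), with a median of 0.78. In the F13a1 Chil3 cluster 0 of 5 were higher (17.3%) and 4 were lower (15.9%), with a median of -1.35. Within the whole Fn1 Lyz2 cluster, Ccl2 was at 375 CPM in the library labelled knockout and 177 CPM in the library labelled control, 2.12 times higher (1.62 to 2.78). Cxcl2 was there at 630 and 408 CPM, 1.54 times higher (1.27 to 1.87). Over the pooled cells without split UMIs the same list ran the other way, with 12 of 12 lower in the library labelled knockout (16.8% of all genes) and a median of -1.36, against 0.06. Of this list 11 of 11 were higher in the Fn1 Lyz2 than in the F13a1 Chil3 cluster of the library labelled knockout (19.4% of all genes) and 9 of 11 in the library labelled control (22.6%).

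Of 43 other C-type lectin genes, 9 had enough UMIs in the Fn1 Lyz2 cluster, and Clec10a alone was past 1.5-fold by label, higher in the library labelled knockout, a share near the 8.55% of all genes that were higher; 0 were lower (13.8%). Cd302, which also encodes a C-type lectin receptor, was at 268 CPM in the library labelled knockout and 269 CPM in the library labelled control.

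Over 18 profiles, each a cluster in a sinusoidal library with at least 10 cells, the genes most like each lectin gene were found by Pearson correlation of log2 levels among 5977 genes. The profiles share libraries and depth, so these values are a description. Clec4a3 was most like Dpep2 (0.99), Gm5150 (0.99) and Sirpb1c (0.98), and Clec4a1 most like Il13ra1, Dpep2 and Clec4a3 (each 0.98). Clec4e was most like Pmaip1 (0.97), Clec4a3 (0.96) and Dpep2 (0.95). Clec4a2 was most like C3 (0.96), Hp (0.96) and App (0.95), and Clec12a like Plin3 (0.91), Txndc12 (0.90) and Apmap (0.89). The 3 monocyte genes thus shared neighbours that were not those of Clec4a2 and Clec12a. Clec4d and Clec4n did not reach the 50 CPM needed in any profile.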

How the data were processed

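Per the submitters' processing notes Cell Ranger and Seurat were used with mm10, and their versions are not stated there. The authors deposited whole-number UMI counts per gene and cell, per the file headers, and all values start from these. Cells with under 200 genes or 10% or more mitochondrial UMIs were left out (74 of 3641). Cells were clustered with scanpy 1.11.5 (Leiden, resolution 1, 1993 variable genes without the lectin genes, 30 principal components, 15 neighbours) and named from marker lists. Lyz2-high cells were all monocyte-like clusters, split by at least 1 UMI of Ear2, Fcgr4 or Adgre4. Counts were summed per library and cell class and scaled to CPM. Intervals are exact, from scipy 1.17.1: Poisson for levels, conditional on the total for ratios, Clopper-Pearson for shares. The ratio step was tested on simulated data. Log2 ratios add 0.5 UMIs, and likeness uses log2(CPM + 20). Scrublet marked 2 to 6 cells per library, none Lyz2-high in the sinusoidal libraries, and these were kept. In the type H libraries it marked 0.108% and 0.620%, so it may have missed doublets. Over the 4 libraries 4 barcodes occurred in more than 1, and 0 in both sinusoidal libraries. The files count 3' tags, so deleted exons can go unseen.

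Named genes were the listed genes, the checks, at most 4 of each list by summed UMIs (others named because a count was small) and the 3 most alike; 1 gene that the rule names is not reported here. The members and gene lists were chosen with earlier results of these data known. No ratio was given where a library had under 10 cells of a class. Alternatives were the cell filter, resolution, size factors, means over cells, doublets, sex, the split and Lyz2 minimum.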

Additional observations from a re-analysis of the deposited data

Results flagged for a closer look

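The lectin genes also gave UMIs in the type H gate, the Sca-positive gate whose libraries the comparisons above did not use. Its dendritic-like cells had Clec12a at 440 CPM (45 UMIs, 25 cells) in the library labelled knockout and 445 CPM (58 UMIs, 25 cells) in the library labelled control, and 0 UMIs of the other 6 lectin genes in either, the pattern of the sinusoidal dendritic-like cells.

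Lyz2-high cells were rare in the type H gate, with 13 cells labelled knockout and 6 labelled control. In the 13 cells labelled knockout Clec4a1 was at 306 CPM (23 UMIs), Clec12a at 253 CPM (19 UMIs), Clec4a3 at 213 CPM (16 UMIs), Clec4a2 at 200 CPM (15 UMIs) and Clec4e at 66.5 CPM (5 UMIs). In the 6 cells labelled control Clec4a2 was at 370 CPM (16 UMIs), Clec12a at 347 CPM (15 UMIs), Clec4a3 at 185 CPM (8 UMIs) and Clec4a1 at 116 CPM (5 UMIs). The 16 Clec4a2 UMIs came from 2 of these 6 cells, and 11 of them from 1 cell. Each gene count listed for these Lyz2-high cells was above 3 UMIs, the limit used for a count of 0. That limit does not measure background, and so few cells give no ratio.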

How the results depend on the processing

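The lower pooled level in Lyz2-high cells labelled knockout depends on which cells count as monocyte-like. With no cell filter the F13a1 Chil3 cells fell in an unnamed cluster, and the summed ratios were 1.03 without and 1.06 with split UMIs, and those of Clec4e 1.21 and 1.04. In the Fn1 Lyz2 cluster alone, an alternative chosen after seeing the data, the summed ratios were 0.963 and 1.38, and in cells with split UMIs Clec4e was at 2.02, Clec4a1 at 1.38 and Clec4a3 at 1.26 (Clec4e 1.11 without). There the summed level with against without split UMIs was 1.29 in the library labelled knockout and 0.903 in the library labelled control. As a mean over cells the ratio without split UMIs was 0.806 and the control value of the split 1.29, and over cells with Y-linked and no Xist UMIs 0.541. In granulocyte precursors the summed ratio was 0.958 over cells with Xist and no Y-linked UMIs (Clec12a 0.974), and, also chosen after seeing the data, 1.01 in the Elane cluster (Clec12a 0.976) and 1.29 in the Ngp cluster. Without the cell with the most Clec4d and Clec4n UMIs the Clec4n ratio was 0.614. With 1 UMI as the minimum, 19 other C-type lectin genes passed 1.5-fold by label in pooled cells without split UMIs (5 of 10 before). So did 16 nonclassical monocyte genes (7 of 8 before). At the minimum used above, 20.7% of all genes were higher and 16.8% lower in this comparison. The share of all genes passing at 1 UMI is not given here, so the 19 and 16 have no background to be read against. Of the other alternative values, 40 of the main results and 258 of single genes moved by less than their intervals, and 35 of single genes moved beyond them. Of the 40 and 258, 6 and 35 came from resolution 2, where the sinusoidal clusters used here had unchanged cell counts. Another 4 and 21 came from leaving out cells marked by Scrublet, none of them Lyz2-high in the sinusoidal libraries. These values had little room to move, so the 40 and 258 do not measure how firm the results are. The stricter cell filter left no dendritic-like cluster, so that value was not run. No paired analysis was possible because each group had 1 library. Depth limits Clec4n, Clec4d in the monocyte-like clusters, and Clec4a1, Clec4a3 and Clec4e in the F13a1 Chil3 cells labelled control.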
